A study of Arabidopsis thaliana with 6 samples.

Results

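The transcript profile of control seedlings comprised the 300 named genes with the highest mean signal on the 2 control arrays, chosen from 13350 named genes on an array of 22746 probe sets. The study set 3 groups of Arabidopsis thaliana seedlings on 6 ATH1 arrays, Affymetrix oligonucleotide arrays that measure each transcript with a set of short probes, and it asked how nuclear genes respond when chloroplasts are kept from dividing. The groups were prolonged induction, temporal induction and control. Only the controls are described here. They were 14-day-old whole plants of the Ler-0 background that carried a T-DNA with the empty vector PER-10, stood at developmental stage 1.04 with 4 rosette leaves, and had grown in constant light on lehle plates. They received the inducer, 2 µM 17-B-estradiol, as a spray on day 13 and were harvested 24 h later, so they are not untreated wild-type seedlings. Both replicates carry the same labels, which do not say how many plants were pooled or whether the replicates were separate cultures. Technical and biological sources of the difference between the arrays therefore cannot be told apart, and neither was tested.

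The list was made by ranking probe sets on the mean of the 2 linear signals, keeping those with exactly 1 gene symbol and letting the brightest probe set stand for a gene. Mean signals in it ran from 643 to 33563, with a median of 1145, against a median of 56.3 over all probe sets. Because a signal depends on the probes as well as on the transcript, the order is one of signals and not of transcript numbers. The 300th gene stood at probe set rank 779, and of these 779 probe sets 438 had no symbol and 41 had several in the table of names used here. Among the 20 brightest probe sets, 10 were unnamed. The list therefore holds named genes only and leaves out many bright transcripts, among them any that share a probe set with a close relative. Members that only just entered were CP5, AT3G16670, ty2, AT1G64850 and AT3G49720, with mean signals of 646 ± 40.4, 645 ± 8.94, 644 ± 35.2, 644 ± 74.4 and 643 ± 1.77 (SD, n = 2 arrays, as throughout). Just outside were AT1G47400, AT1G14450, SAH7, AT5G19250 and AT1G22690, with 634 ± 42.7, 633 ± 25, 629 ± 4.54, 625 ± 12.8 and 623 ± 93.0.

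A young leaf cell holds many chloroplasts, and each chloroplast carries many copies of a small genome that encodes the core subunits of the photosystems, the cytochrome b6f complex, the ATP synthase and a plastid NADH dehydrogenase-like complex, together with ribosomal proteins and an RNA polymerase. The remaining subunits of these complexes are encoded in the nucleus, made on cytosolic ribosomes and imported. Growing seedlings also build cytosolic ribosomes in large numbers, and genes for their proteins are known for high transcript levels.

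Of the 300 genes, 53 (17.7%) lay on the plastid genome, 63 (21%) encoded proteins of the cytosolic ribosome and 29 (9.67%) were nuclear genes for thylakoid proteins, carbon fixation, photorespiration or pigment synthesis. A further 17 encoded proteins of mitochondrial respiration, 15 redox proteins, 9 membrane transport proteins and 8 nuclear-encoded proteins of the plastid ribosome. For 35 genes no function is given here. These shares are of named genes only. As 438 unnamed probe sets and 41 with several symbols were as bright, the classes cannot be weighed against each other in the whole RNA. Shares of the nuclear classes among all named genes could not be computed. The plastid genome supplied 9 of the 10 brightest named genes and 19 of the brightest 30. Its 69 genes measured by a probe set with exactly 1 symbol made up 0.517% of all named genes. Plastid genes whose symbol is listed more than once for a probe set, such as rpl2 and rps12, are not in these counts. In all, 53 of these 69 entered the list. In RNA of whole plants, the number of cells or plastids of a kind and the RNA that each holds cannot be told apart.

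The nuclear and the plastid members differed in how well the arrays agreed. Over 2-fold differences between the arrays were found for 11 of the 300 genes, against 22.5% of all 22746 probe sets and 1.54% of the 779 probe sets at or above the signal of the 300th gene. All 11 were plastid genes, and all 11 read higher in replicate 1. Of the 779 probe sets 12 differed this much, and the remaining 1 carried the symbol rps12, also a plastid gene, more than once. Among the 246 nuclear members 0 differed over 2-fold, as did 0 of the 438 unnamed probe sets of the same signal range. The median absolute log2 ratio was 0.12 for cytosolic ribosomal protein genes and 0.12 for all nuclear members, and 0.55 for plastid members. Across genes, the log2 signals of the arrays correlated at r = 0.97 (Spearman rho 0.93) for the 246 nuclear members and r = 0.90 (rho 0.86) for the 53 plastid members. These are descriptions across genes that share 2 hybridizations.

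**Figure D1:**
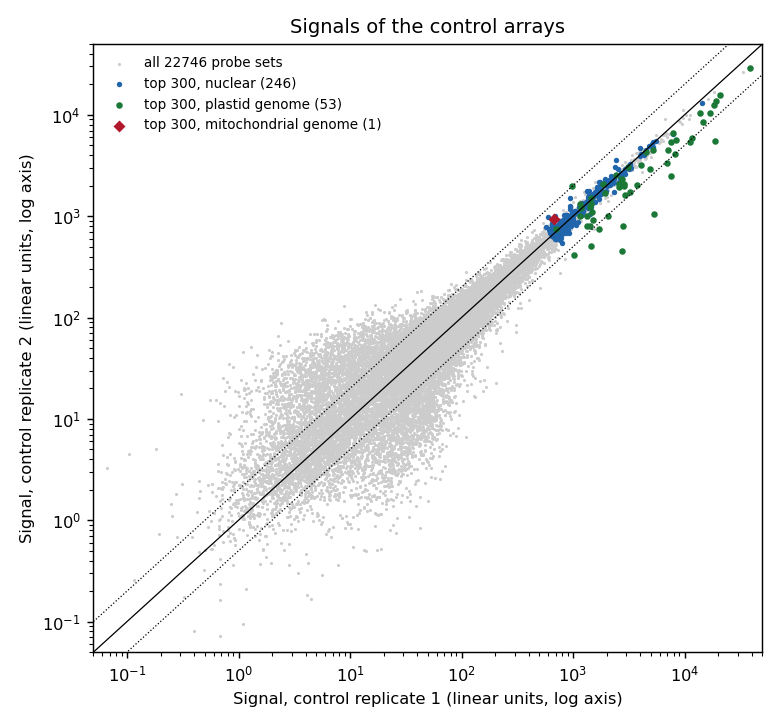
Signal in control replicate 2 against control replicate 1 for all probe sets (grey), nuclear genes of the list (blue), plastid genome genes of the list (green) and the mitochondrial gene nad4 (red), on log axes. The solid line marks equal signals and the dotted lines a 2-fold difference; the nuclear genes lie within the dotted lines, and 11 of 53 plastid genes lie below them.

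The brightest named gene was psbM, for a small photosystem II subunit, with signals of 38396 and 28731 in replicates 1 and 2. The ATP synthase genes atpE and atpB, for subunits of the catalytic head, read 20752 and 15607, and 19278 and 13747. petB, for cytochrome b6, read 18213 and 12388, and psaB, for a reaction centre protein of photosystem I, read 17010.4 and 10505. All 5 were higher in replicate 1, by 1.33-fold to 1.62-fold. matK, which encodes an intron maturase, read 13842 and 10505, and clpP, for a protease subunit, read 7490.0 and 5389. psbA, which encodes the D1 protein of photosystem II, read 11594 and 5896. Also among the brightest 30 were psaI (7815 and 6665), the NADH dehydrogenase-like genes ndhI (8413 and 5627) and ndhD (11106 and 5344), and psbH (8184 and 4152) and psbI (7064 and 4534). atpA (14568 and 8575), rpl32 (5231 and 4450.5) and rps4 (4504 and 4249.6), the last 2 for ribosomal proteins, belonged there too. In these 16 genes, and in psaJ, atpH and atpF below, the signal of replicate 1 exceeded that of replicate 2.

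The brightest named nuclear gene was RCA (AT2G39730), which encodes Rubisco activase, with signals of 14256 and 13024 (13640.4 ± 871). It was followed by PSBW (AT2G30570), for a photosystem II protein, with 7911 and 6398, and LHCB4.1 (AT5G01530), for the minor antenna protein CP29, with 5548 and 5466. AT2G45180, of the lipid transfer protein superfamily, read 5210.1 and 5399, and the class III peroxidase gene PRXR1 (AT4G21960) read 5087 and 5116. GAPC2 (AT1G13440), for a cytosolic glyceraldehyde-3-phosphate dehydrogenase, read 5252 and 4843. The signals of LHCB4.1, AT2G45180 and PRXR1 differed by at most 1.04-fold between the arrays. AT2G26500, for the PetM subunit of the cytochrome b6f complex, read 4795 and 4963, and AT4G01150, for the thylakoid curvature protein CURT1A, read 4544 and 4516. MT1C (AT1G07610), a metallothionein gene, read 4442 and 4317. PYK10 (AT3G09260), for the β-glucosidase of root endoplasmic reticulum bodies, read 4006 and 4659.6, and AT3G09200, for the large ribosomal subunit protein P0, read 4306 and 4042. None of these 11 genes differed more than 1.24-fold between the arrays.

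**Figure D2:**
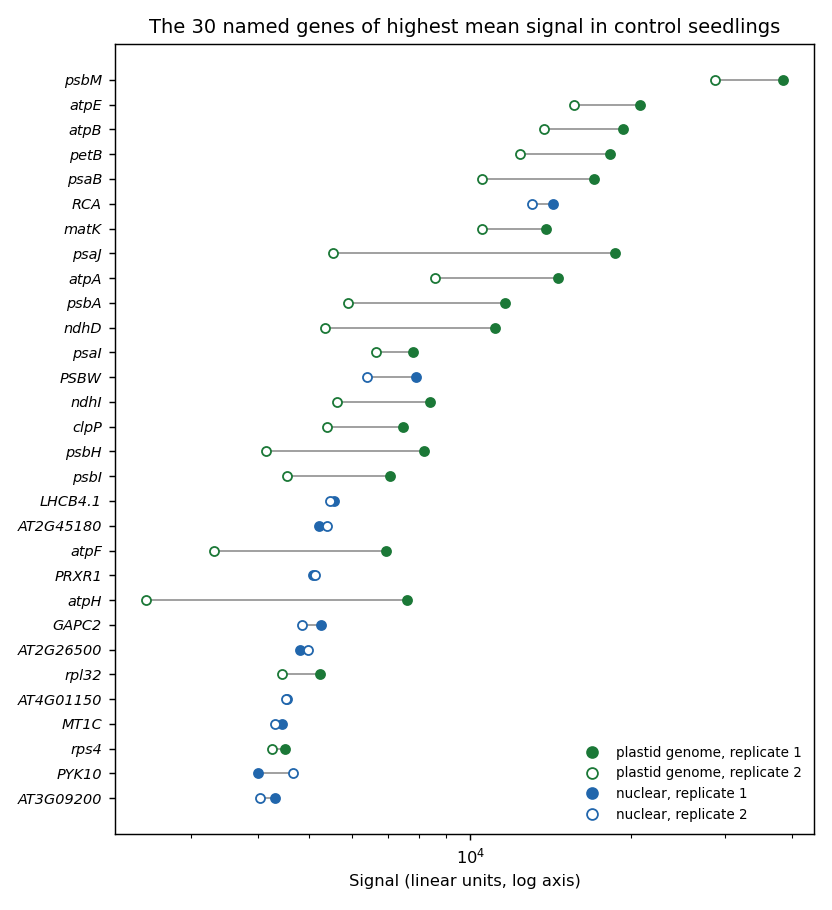
Signals of the 30 named genes with the highest mean, on a log axis, with replicate 1 as a filled and replicate 2 as an open circle, for plastid genome genes (green) and nuclear genes (blue). The open circles lie left of the filled ones in all 19 plastid genes, and the circles of the 11 nuclear genes lie within 1.24-fold of each other.

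For photosystem I, whose reaction centre is formed by the heterodimer of PsaA and PsaB, 6 of 7 measured plastid genes (assembly factors ycf3 and ycf4 included) were members. psaA read 5305 and 1040.2 in replicates 1 and 2, and psaC, for the iron-sulphur subunit that reduces ferredoxin, read 2829.9 and 805. psaJ, for a small subunit, read 18609 and 5529. All 7 were higher in replicate 1, with a median log2 ratio of replicate 2 over replicate 1 of −1.48, and 5 of them differed over 2-fold. Nuclear subunits of the same complex did not share this gap. PSAE-1 (AT4G28750) read 4101 and 4088, and PSAN (AT5G64040), for a lumenal subunit, read 2419 and 3602, higher in replicate 2.

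For photosystem II, the complex that oxidizes water, 13 of 15 measured plastid genes were members. The gene with the widest gap in the list was psbB, for the inner antenna protein CP47, with 2737 and 457 (log2 ratio −2.58), which placed it 51st among named genes in replicate 1 and 457th in replicate 2. psbD, for the D2 protein, read 1463 and 505, and psbC, for CP43, read 3216 and 1750.0. psbL, for a small subunit, went the other way with 988 and 1975, just under 2-fold. Of the 15 genes 13 were higher in replicate 1 and 2 differed over 2-fold, and the median log2 ratio was −0.72. The nuclear genes PSBY (AT1G67740) and PSB27 (AT1G03600), the latter for an assembly factor, read 2015 and 2084, and 1672 and 1565. AT1G51400, for a small photosystem II protein, read 1645 and 1661. Each of these agreed to within 1.07-fold. The brighter nuclear gene PSBW read 7911 and 6398 and was 1.24-fold higher in replicate 1, the direction of most plastid genes.

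For the ATP synthase, 5 of 6 measured plastid genes were members and all 6 were higher in replicate 1 (median log2 ratio −0.92). atpH, for the subunit of the membrane ring, read 7619 and 2478, and atpF, for a stalk subunit, read 6965 and 3315. The nuclear gene of the γ subunit, ATPC1 (AT4G04640), read 3263 and 3269. Its pair of signals was among the closest in the list while every plastid-encoded partner in the complex read lower in replicate 2. For the cytochrome b6f complex and the cytochrome assembly gene ccsA, 6 of 7 genes were higher in replicate 1, and petA, for cytochrome f, was not (1872 and 2069). petL read 2919 and 1602 and ccsA 2879.7 and 1966. Of 10 measured genes of the NADH dehydrogenase-like complex, which takes part in cyclic electron flow, 7 were members and 9 of the 10 were higher in replicate 1, with a median log2 ratio of −0.78. Among them ndhK read 1015 and 418, ndhA 3747 and 2047 and ndhC 4101 and 3203. rbcL, for the large subunit of Rubisco, read 1489.7 and 1108, and accD, for a subunit of plastid acetyl-CoA carboxylase, read 1707 and 746.

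Plastid genes for transcription and translation lay closer together. Of 15 ribosomal protein genes of the plastid genome measured with exactly 1 symbol, 10 were members. Their 15 log2 ratios had a median of −0.14, with 10 genes higher in replicate 1, 5 higher in replicate 2 and 0 differing over 2-fold. Left out of these counts were rps12, whose probe set differed over 2-fold, and rpl2, whose shared probe set read 6414 and 6389. rps19 read 3086 and 3046, rps3 2439.8 and 2574 and rps15 1439 and 1509.5, and these 3 pairs differed by 1.01-fold to 1.05-fold. The RNA polymerase genes rpoC1, rpoC2 and rpoA read 2839.7 and 2082, 1426 and 1237, and 1163 and 1308. The fourth subunit gene, rpoB, was no member (203 and 76.1). Together the 19 genes for transcription and translation had a median log2 ratio of −0.17, and the 50 other plastid genes one of −0.71. This division was drawn with the values known and is not an independent result.

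Over all 69 plastid genes 59 (85.5%) read higher in replicate 1, against 49% of all probe sets. In that direction 15 (21.7%) differed over 2-fold, against 10.5% of all probe sets, most of them far less bright. In the highest of 10 equal groups by mean signal, plastid genes included, 16 of 2275 probe sets did so. The 16 plastid genes outside the list showed the same direction in 13 cases, with a median log2 ratio of −0.59. Genes that are next to each other on the plastid genome were only slightly closer in this ratio than pairs in general. The median absolute difference in log2 ratio was 0.48 between 64 neighbouring pairs and 0.56 between all 2346 pairs. Neighbours were paired by position alone, whatever their strand, and only some are transcribed together. The comparison therefore does not show how close genes transcribed together were. In the neighbouring genes psbB, psbT, psbN, psbH, petB and petD the log2 ratios were −2.58, −0.72, −0.85, −0.98, −0.56 and −0.26, whereas in atpI, atpH, atpF and atpA they were −1.43, −1.62, −1.07 and −0.76. Across the 69 genes the log2 ratio had a Spearman rho of −0.05 with the mean signal and −0.21 with the length of the gene, given as descriptions.

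**Figure D3:**
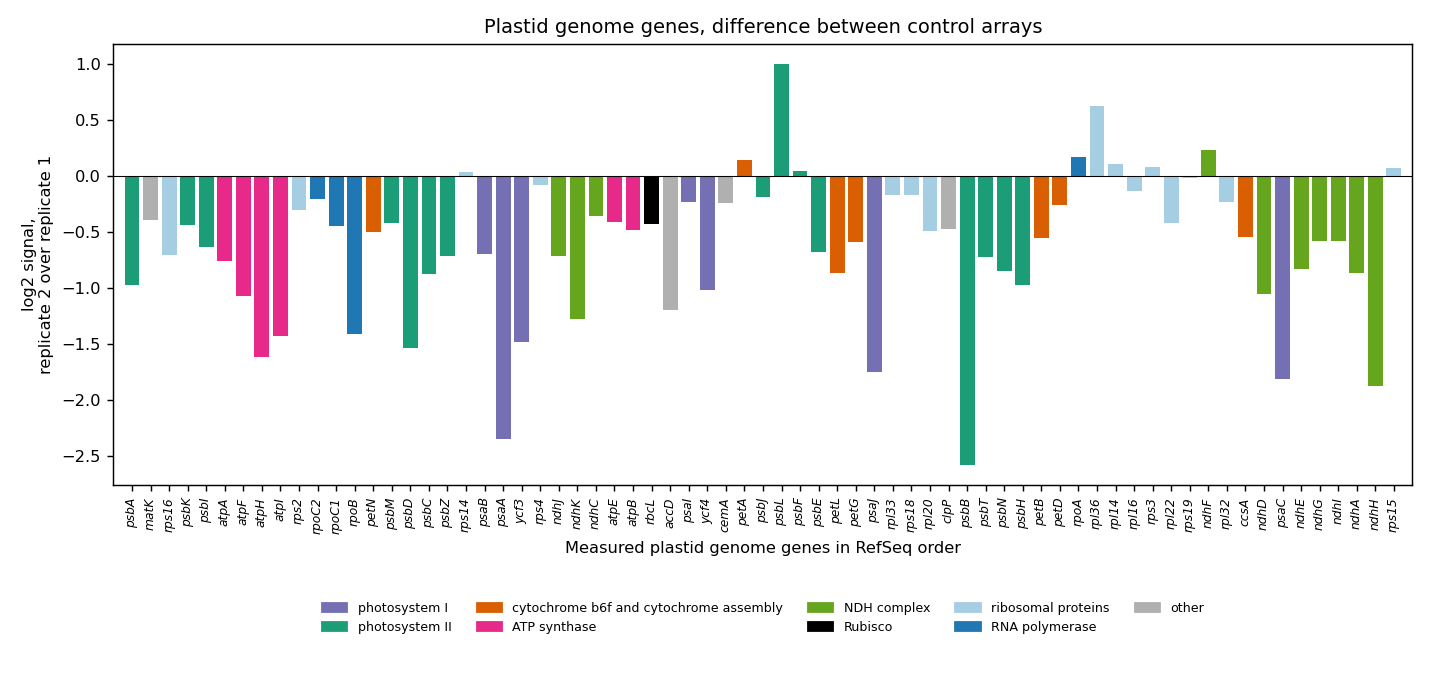
Log2 ratio of the signal in control replicate 2 over replicate 1 for the 69 plastid genome genes measured with exactly 1 symbol. They are in the order of the RefSeq annotation and coloured by the complex they belong to. Bars below 0 are genes that read higher in replicate 1, as 59 of 69 did; psbB, psaA, ndhH, psaC and psaJ reach furthest down.

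The summed signal of the 53 plastid members was 322207 in replicate 1 and 208982 in replicate 2, which was 9.15% and 6.18% of the signal summed over all probe sets. That of the 246 nuclear members was 351190 and 352592. Some signs of RNA quality and labelling also differed between the arrays, and others did not. Signals of 3′ over 5′ probe sets of control transcripts stood at 1.82 and 2.38 for GAPDH, 1.66 and 1.79 for ubiquitin and 4.19 on both arrays for actin. The control probe set of 25S ribosomal RNA read 2701 and 4532, and that of 5S ribosomal RNA 67.0 and 133. One-cycle labelling, as used here, starts from poly(A) tails, which stable plastid messages mostly lack, so plastid signals need not follow plastid transcript levels. The part of these measures in the plastid difference was not tested.

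The cytosolic ribosome was the most numerous nuclear group among the named genes of the list, with 43 genes for the 60S and 20 for the 40S subunit. The brightest 60S genes after AT3G09200 were AT1G01100 (3949 and 3954), for the stalk protein P1, and AT1G77940 (3172 and 2928), AT3G24830 (2721 and 2469), AT4G16720 (2217 and 2134) and AT4G27090 (1947 and 2344), for proteins of the L class. The brightest 40S genes were AT5G20290 (2945 and 2583), AT2G36160 (2691 and 2645), AT3G11510 (2119 and 2294), AT5G52650 (2261 and 2144), AT5G15200 (1956 and 2199) and AT5G16130 (1741 and 1852), for proteins of the S class. Mean signals of the 63 genes ran from 647 to 4174. In this group 27 genes read higher in replicate 1 and 36 in replicate 2. In it 0 differed over 2-fold and 1 differed over 1.5-fold, against 38.7% of all probe sets, most of them far less bright. In the list as a whole 8.67% differed over 1.5-fold, and among nuclear members outside this group only AT1G76200 did. The ribosomal protein gene beyond 1.5-fold, named after its value was seen, was AT4G39200, for a 40S protein, with 934 and 1509. Ribosomal proteins of Arabidopsis are encoded by small families of similar genes, so a probe set named for 1 gene may also read its relatives. The translation factor genes AT5G19510, for an elongation factor 1B subunit, EIF4A-2 (AT1G54270) and AT3G08740, of the elongation factor P family, read 2329.8 and 2349, 980.2 and 999.8, and 837 and 862.

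Nuclear genes for the plastid ribosome had a median absolute log2 ratio of 0.16. The 8 members had a median signed log2 ratio of −0.01, with 4 genes higher in each replicate. AT2G43030 (1364 and 1194), AT3G13120 (1424 and 1057), AT4G01310 (1185 and 1252), AT1G29070 (1088 and 1067), AT5G65220 (869 and 983) and AT3G54210 (728 and 812) were the brightest of them. AT3G13120 had the widest gap of the group, at 1.35-fold.

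Among nuclear genes of carbon fixation, PRK (AT1G32060), for phosphoribulokinase, read 3332 and 2989 and SBPASE (AT3G55800), for sedoheptulose-bisphosphatase, read 2337 and 1750.2. With RCA these were the 3 members of this group, and all 3 were higher in replicate 1, by 1.09-fold, 1.11-fold and 1.34-fold. The antenna had a second member in LHCB4.2 (AT3G08940), another CP29 gene, with 695 and 675. Photorespiration, which salvages the product of oxygen fixation by Rubisco, had 4 members. HPR (AT1G68010), for peroxisomal hydroxypyruvate reductase, read 2358 and 3065. AT1G32470 and AT1G11860, for the H and T proteins of the mitochondrial glycine cleavage system, read 1729 and 2001, and 1386 and 1613. LrgB (AT1G32080), for a plastid glycolate and glycerate transporter, read 1114 and 1078. HPR and both glycine cleavage genes were higher in replicate 2, by 1.16-fold to 1.30-fold.

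Pigment synthesis was represented by AT1G74470, for geranylgeranyl reductase (1675 and 1868), PORB (AT4G27440), for a protochlorophyllide oxidoreductase that needs light (1057 and 819), and LIL3:2 and LIL3:1, for light-harvesting-like proteins (726 and 695, and 669.6 and 703). Other thylakoid proteins were those of AT1G54500, a rubredoxin-like protein (1435 and 1362), and PIFI (934 and 1273), and of AT1G74730 and AT5G08050, known as RIQ2 and RIQ1 and involved in grana stacking (920.4 and 984, and 954 and 935). AT1G52220, for CURT1C, read 759.6 and 740.2. Of the 8 genes of this group 6 were higher in replicate 1, with a median log2 ratio of −0.03.

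**Figure D4:**
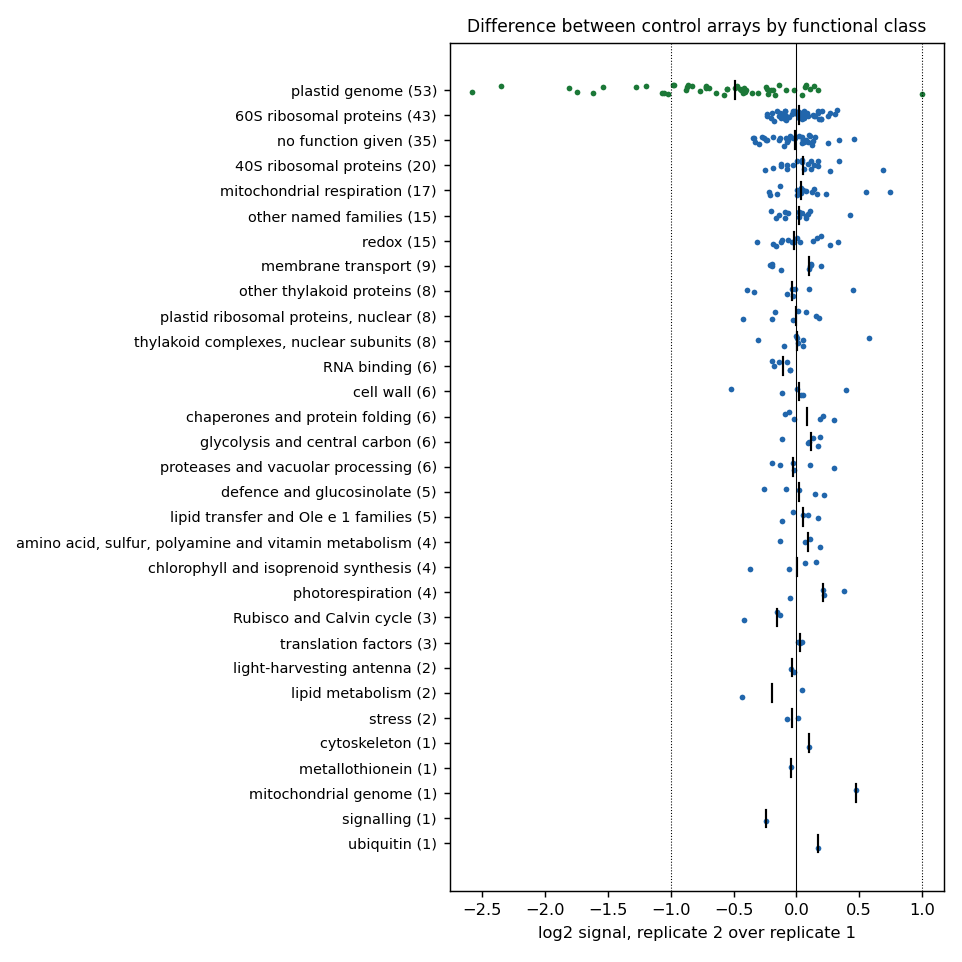
Log2 ratio of the signal in control replicate 2 over replicate 1 for each of the 300 genes, by functional class, with the number of genes in parentheses, a black bar at the median of the class and dotted lines at a 2-fold difference. The plastid genome (green) has a median of −0.49 and is the only class with points beyond a 2-fold difference. Medians of the nuclear classes with 8 or more genes (blue, the colour also of nad4) lie between −0.03 and 0.10.

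Mitochondrial respiration had 17 nuclear members, of which 13 read higher in replicate 2 and 0 differed over 2-fold. Of all 246 nuclear members 133 read higher in replicate 2, as did 11604 of all 22746 probe sets. The gaps in this class were mostly small, with a median log2 ratio of 0.04. AT4G37830, for a cytochrome c oxidase subunit, read 1299 and 1346, and CYTC-1 (AT1G22840), for cytochrome c, read 1184 and 1189.7. AT3G08610, for a complex I subunit, read 1030.3 and 1088, MPPBETA (AT3G02090), for a subunit of the processing peptidase that is part of complex III in plants, read 1001 and 1088, and AT3G52730, for a small complex III subunit, read 1031 and 1056. The widest gap among all nuclear members was that of AT1G76200, for a complex I subunit, with 592 and 992 (1.68-fold); it was singled out after its values were seen, as was AT4G32470 of complex III (683 and 1004). The mitochondrial genome supplied 1 member of 11 measured genes, nad4, for a complex I subunit, with 671 and 930.5. Of these 11 genes 5 read higher in replicate 1 and 6 in replicate 2, against 59 and 10 of the 69 plastid genes, a difference that was not tested. The sets are unlike in signal. Mean signals of the mitochondrial genes other than nad4 ran from 6.91 to 240, and the plastid genes had a median of 1818. The means of nad2, nad7 and matR lay in signal ranges in which 33.2% to 56.6% of probe sets differed over 2-fold.

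The redox group held 15 genes. After PRXR1, AT3G11630, for the chloroplast 2-Cys peroxiredoxin A, read 3234 and 3185, and ATHM2 (AT4G03520), for thioredoxin m2, read 1989 and 1778. AT2G04700, for the catalytic chain of ferredoxin-thioredoxin reductase, read 1199.5 and 1142, AT3G52960, for peroxiredoxin IIE, read 1214 and 1068, and the glutathione transferase gene GSTU20 (AT1G78370) read 979 and 1095. The median log2 ratio of the group was −0.02. In central carbon metabolism TPI (AT3G55440), for cytosolic triose phosphate isomerase, read 2548 and 2901, cICDH (AT1G65930), for cytosolic isocitrate dehydrogenase, 1359.5 and 1531 and AT5G58330, for the chloroplast NADP-malate dehydrogenase, 896 and 983. SAMDC (AT3G02470), for the S-adenosylmethionine decarboxylase of polyamine synthesis, read 2894 and 2644. AT3G58610, for ketol-acid reductoisomerase of branched-chain amino acid synthesis, read 2274 and 2385, and THIC (AT2G29630), for an enzyme of thiamine synthesis, read 1048 and 1130.3.

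Secreted and cell wall proteins included several lipid transfer-like genes. AT1G78040, of the pollen Ole e 1 family, read 2189.5 and 2465, and AT2G10940 and AT5G48490, of the lipid transfer protein superfamily, read 1812 and 1675, and 1412 and 1509. AT4G16980, an arabinogalactan protein family gene, read 1380.3 and 1274. It was the only member with a second probe set, which read 131 and 133, far below the first. Among defence genes, BCAT4 (AT3G19710), for an aminotransferase of methionine-derived glucosinolate synthesis, read 1289 and 1307, JAL34 (AT3G16460), for a jacalin-related lectin, 769.9 and 851 and LCR69 (AT2G02100), for a plant defensin, 785 and 741. Protease genes were led by APA1 (AT1G11910), for an aspartic proteinase, with 2956 and 2919, and AT4G16190, of the papain family, with 2577 and 2526. AT3G47650, for the Rubisco assembly chaperone BSD2, read 1749.8 and 2153.

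Among transport genes, AT5G19760, for a mitochondrial dicarboxylate and tricarboxylate carrier, read 1579 and 1716, AT3G30390, of an amino acid transporter family, 1710.1 and 1493 and SWEET11 (AT3G48740), for a sucrose efflux carrier of the phloem, 1430.3 and 1251. All 6 RNA-binding members were higher in replicate 1, but by 1.03-fold to 1.14-fold, and the brightest, AT2G37220, for a chloroplast RNA-binding protein, read 2630.5 and 2325. AT2G41090, for a calmodulin-like protein, read 2508 and 2126, and the stress genes DI19 (AT1G56280) and HIRD11 (AT1G54410), a dehydrin gene, read 1154 and 1093, and 1061 and 1069. TUA6 (AT4G14960), for an α-tubulin, read 755 and 811, and UBC28 (AT1G64230), for a ubiquitin-conjugating enzyme, 632 and 711. The brightest genes without a function given here were AT5G64400 (1898 and 2051), AT3G50685 (1641 and 1957), AT5G38980 (1797 and 1642), AT4G20150 (1571 and 1647) and AT3G22210 (1576 and 1628).

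The label of a whole plant with leaves and root was checked against 49 marker genes, of which 12 could be measured by name. Of 8 markers of green shoot tissue 4 were measured, and RCA, PRK and SBPASE were members, while LHCB4.3 (AT2G40100) ranked 340th with 614 and 552. Of 5 root markers 3 were measured. PYK10 was a member, and the root hair expansin genes EXPA7 (AT1G12560) and EXPA18 (AT1G62980) read 105 and 86.7, and 60.6 and 66.3. Both lay above the median signal of 56.3, EXPA18 only just, and that median is no detection limit. Of 4 markers of pollen and anthers 2 were measured, and of 6 flowering genes 1. They lay below the median signal on both arrays, with 3.98 and 20.5 for the anther gene ATA27 (AT1G75940), 26.5 and 11.2 for the tapetum gene A9 (AT5G07230) and 21.3 and 21.0 for AGL24 (AT4G24540). FAMA (AT3G24140), a guard cell transcription factor gene and 1 of 3 guard cell markers, read 113 and 70.1. GI (AT1G22770), a clock gene whose transcript cycles in seedlings, read 15.8 and 114, a 7.19-fold gap, and it was the only clock gene of 8 that was measured. Its mean lay in a signal range in which 11.6% of probe sets differed over 2-fold. None of the markers of seed storage, phloem, xylem, myrosin cells or meristem was measured by name.

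The arrays were closest at high signals. Of 10 equal groups of probe sets by mean signal, from the lowest to the highest, the share that differed over 2-fold was 33.2%, 51.7%, 56.6%, 41.1%, 21.8%, 11.6%, 5.10%, 2.77%, 0.792% and 0.747%. The list lies within the highest group, whose lower bound was a mean signal of 256. In that group 17 of 2275 probe sets differed over 2-fold, 16 of them higher in replicate 1. The list itself had a larger share, 11 of 300 genes or 3.67%, all of them plastid genes. In its top 100 genes the share was 6%. Ranks followed the signals. Of the 300 genes, 286 were also among the 300 brightest of replicate 1 alone and 285 among those of replicate 2 alone, and 271 genes were shared by the 2 lists made from single arrays.

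**Figure D5:**
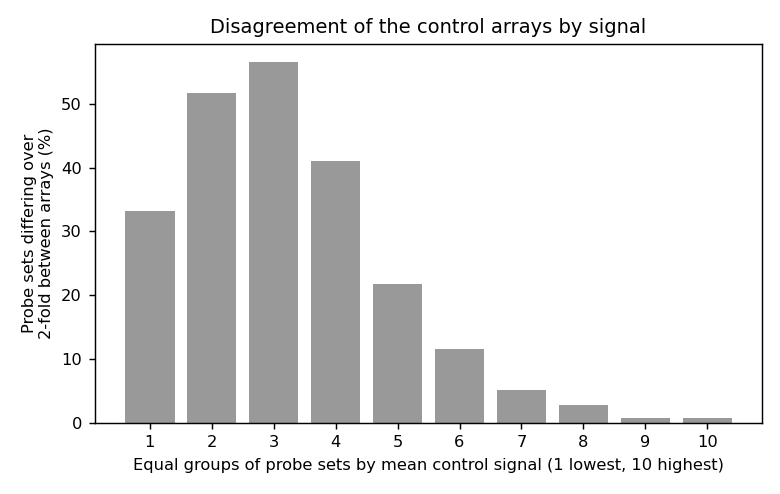
Percent of probe sets whose signals differed over 2-fold between the control arrays, for 10 equal groups of probe sets by mean control signal. The bars run from 56.6% in group 3 to 0.747% in the highest, in which the 300 genes lie. Of the 300 genes themselves 3.67% differed over 2-fold.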

How the data were processed

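Each array's deposited column gives a linear intensity for every probe set. MAS5 and GCOS are named for this step, per the submitters' processing notes, and their versions were not given in sources used here. The mean after trimming 2% at each end was 100.01 on both control arrays, so they had been scaled before deposit, and the trimmed end includes the brightest 456 probe sets. Detection calls were not analysed here. Of 22810 probe sets 64 Affymetrix controls were kept out of the ranking. Of the others 13513 had 1 symbol in the table of names, 13436 of them matched to the TAIR10.1 annotation, which was used for loci, genome and gene order only. Median signals were 56.3 and 57.3, and the number of arrays, 2, limits precision. The 4 arrays of the induced groups were not used.

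A single group allows no test between conditions, so values, ratios and counts are given without p-values. Functional classes were assigned by hand after the list was seen, from background knowledge of each gene and not from product descriptions as planned, because the name tables hold none, and shares of most classes among all named genes could not be computed. The genes named are the 30 brightest, up to 6 per class, the 10 with the widest gap between arrays, 5 on each side of the end of the list, and the measured markers. Members and lists were chosen with earlier results of these data known. Further plastid genes are named to describe their complexes, after their values were seen. The computation ran in Python 3.11.15 with pandas 2.3.3 and was tested on simulated data.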

Additional observations from a re-analysis of the deposited data

How the results depend on the processing

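Ranking by the mean of log2 signals, after quantile normalization or after median centring kept all 300 genes. Ranking by the lower of the arrays kept 290. Median signals were 56.3 and 57.3, so median centring could move little. Quantile normalization keeps the order within each array, so neither of these 2 settings could change the list much. Leaving out 1 replicate kept 285 to 286, but the list was ranked on both arrays, so part of this overlap was built in. The 2 lists made from single arrays shared 271 genes. Leaving out probe sets of special types could remove no member, since the list holds 0 of them, and averaging the probe sets of a gene could lower only AT4G16980, which stayed, so neither bears on stability. In the top 100 genes the plastid genome held 35%, nuclear subunits of thylakoid complexes 8%, redox proteins 3%, other thylakoid proteins 1%, and mitochondrial respiration and the plastid ribosome 0% each. In the top 600 the plastid genome held 10%, 60S proteins 8.83%, 40S proteins 4.83% and the mitochondrial genome 0.167%. The remaining classes were not counted there, because genes of lower rank were not assigned. Shares of classes with 1 to 6 members moved by over 1.5 times in 16 cases, the mitochondrial genome in the top 600 included, and 13 of them were in the top 100.

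The share differing over 2-fold, 3.67% of the list, was 6% in the top 100, 2.17% in the top 600, and 0% in nuclear genes alone, an alternative chosen after seeing the data. At 1.5-fold it was 8.67%. Over all probe sets the share was 22.5%, against 8.42% with 16 added to the signal, 12.0% without the lowest 30% and 38.7% at 1.5-fold. The median log2 ratio of plastid genes, −0.55, kept its direction under quantile normalization and median centring. The filter on low signal removed none of the 69 genes and so tests nothing here. No paired analysis was possible because only 1 group was described.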

Other observations

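Several of the brightest transcripts of these seedlings carry no single name here. The probe set that ranked second read 33433 and 26516 in replicates 1 and 2, and those at ranks 4 and 6 read 18276 and 16795, and 16297 and 14439. All 3 are unnamed in the table used, and each differed by less than 2-fold. A probe set shared by 4 genes, AT1G07940, AT1G07930, AT1G07920 and AT5G60390, which encode translation elongation factor 1α, read 10885 and 9175. The plastid ribosomal gene rpl2, present as 2 copies in the inverted repeat, read 6414 and 6389 on its shared probe set.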
